A study of Homo sapiens with 6 samples.

Results

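The apolipoprotein L (APOL) family was followed in 6 RNA-sequencing libraries of 3 human cell lines. Its members are APOL1, APOL2, APOL3, APOL4, APOL5 and APOL6. They were chosen by gene symbol, and 6 of 6 were present among the 23340 gene names kept from the deposited tables. HT-29, a colorectal adenocarcinoma line, was grown in McCoy's medium with FBS, and the labels of its libraries record IFN-γ (200 U/ml, 24 h). MDA-MB-436, a breast adenocarcinoma line, was grown in L-15 medium with FBS and without CO2. MCF10A, a non-tumorigenic mammary epithelial line, was grown in DMEM/F12 with horse serum, EGF, hydrocortisone, cholera toxin and insulin. No treatment is recorded for the last 2 lines, and HT-29 without IFN-γ was not analysed here. Each line had 2 libraries, 1 labelled 25M reads and 1 deeper, and nothing in the labels says that they came from separate cultures. The p-values thus reflect how far libraries of a line differ, and that spread may be technical.

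The apolipoprotein L genes lie close together on the long arm of chromosome 22. APOL1 is the only member with a signal peptide and circulates on high-density lipoprotein particles, where it lyses African trypanosomes; the other members act inside cells. APOL3 has been described in human cells as an IFN-γ-induced factor that works with the guanylate-binding protein GBP1 to dissolve the membranes of bacteria in the cytosol. APOL6 has been described as a BH3-only-like protein that promotes mitochondrial apoptosis when overexpressed. IFN-γ acts through the receptor chains IFNGR1 and IFNGR2 and the kinases JAK1 and JAK2, and induces the transcription factor IRF1.

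The libraries of 2 lines went against their labels. KRT20, an intestinal keratin, had 0 and 1 read in the HT-29-labelled libraries, 14524 and 50137 in the MDA-MB-436-labelled pair, and 0 and 3 in MCF10A. The brush-border gene VIL1 had 0 reads in the HT-29-labelled libraries and in MCF10A, and 4566 reads in the MDA-MB-436-labelled pair. The mesenchymal filament gene VIM averaged 35933 ± 942 normalised counts in the HT-29-labelled libraries, 11.9 ± 6.42 in the MDA-MB-436-labelled pair and 26074 ± 244 in MCF10A (SD, n = 2 each). Defining intestinal genes were thus absent where the labels record a colorectal line and present where they record a breast line. Groups follow the labels throughout, so all directions refer to labels and not to cell identity or treatment. The IFN-γ record goes with the HT-29 label, so which of these pairs received it is uncertain too. Recovered totals ran from 16.7 to 69.5M reads.

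The family was highest in the MDA-MB-436-labelled libraries, intermediate in the HT-29-labelled pair and lowest in MCF10A. Set per length, as the authors' RPKM summed over the 6 genes, it stood at 36.5 and 35.1 in the HT-29-labelled libraries, at 329.7 and 330.4 in the MDA-MB-436-labelled pair, and at 5.71 and 6.63 in MCF10A. The 2 libraries of each line lay close together and the lines did not overlap. In reads, the family took 159.5 and 155.3 CPM in the HT-29-labelled libraries, 1494 and 1459 CPM in the MDA-MB-436-labelled pair, and 23.8 and 26.6 CPM in MCF10A.

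**Figure D1:**
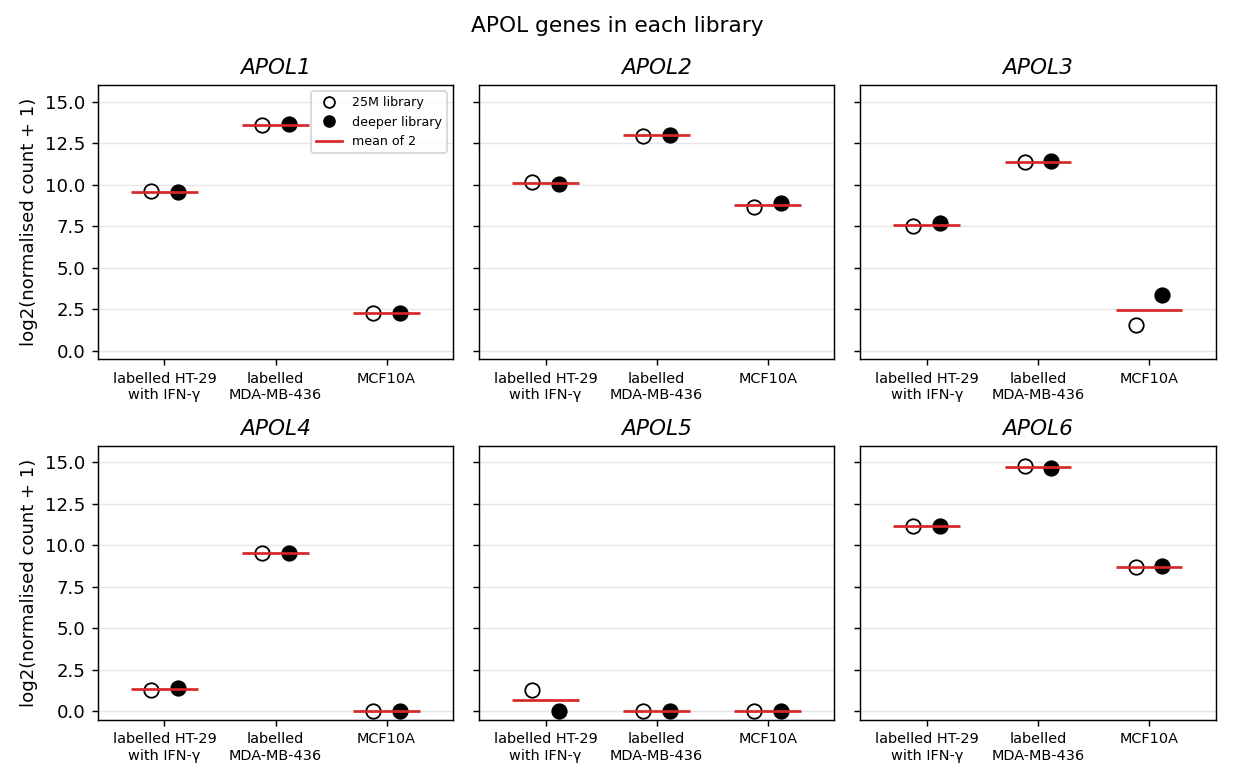
Level of each APOL gene as log2(normalised count + 1) in every library. Open circles are the libraries labelled 25M reads, filled circles the deeper ones, and red lines the mean of the 2 values on this scale. In 5 of the 6 genes the MDA-MB-436-labelled libraries are the highest, from 729.8 normalised counts for APOL4 to 27810.2 for APOL6, while APOL5 has 1 read in all.

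APOL1, the secreted trypanosome lytic factor, was among the more abundant members in the libraries of both cancer-line labels and nearly absent in MCF10A. It had 786 and 746 normalised counts in the HT-29-labelled libraries, 12290.1 and 12577 in the MDA-MB-436-labelled pair, and 3.75 and 3.93 in MCF10A. The MCF10A values rested on 2 and 8 reads. The 3 lines were well apart and the libraries of each line nearly the same. Over pooled reads APOL1 was 194.6-fold higher in the HT-29-labelled libraries than in MCF10A (95% counting interval 105.6 to 406.5), and 3216-fold higher in the MDA-MB-436-labelled pair than in MCF10A (1749 to 6708). Its log2 fold changes were 7.31 (SE 0.0712, adjusted p = 1.87e-10) and 11.33 (SE 0.0712, adjusted p = 2.04e-11), all adjusted p-values here being limma's over all 15638 genes tested. Counted from the most increased gene, with decreases last, APOL1 ranked 39 among the 15638 genes in the MDA-MB-436-labelled libraries against MCF10A. In the HT-29-labelled libraries against MCF10A it ranked 344.

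APOL3, the GBP1 partner against cytosolic bacteria, followed the same order at lower levels. It had 182 and 202 normalised counts in the HT-29-labelled libraries, 2647 and 2696 in the MDA-MB-436-labelled pair, and 1.87 and 9.33 in MCF10A. The MCF10A libraries held 1 and 19 reads of it, so that its level there was poorly fixed. It was 25.3-fold higher in the HT-29-labelled libraries than in MCF10A over pooled reads (16.2 to 41.7), at log2 fold change 5.14 (SE 0.553, adjusted p = 1.79e-04). In the MDA-MB-436-labelled libraries it was 345.2-fold higher than in MCF10A (223.3 to 565.5), at log2 fold change 8.94 (SE 0.553, adjusted p = 1.01e-05). Without the deeper MCF10A library these log2 fold changes were 6.07 and 9.86, and without the 25M MCF10A library they were 4.22 and 8.02. Both calls held in each case.

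APOL6, the apoptosis-promoting member, was found in all 3 lines, but per length it was low in MCF10A, at RPKM values of 1.18 and 1.23. It had 2310.1 and 2278 normalised counts in the HT-29-labelled libraries, 27810.2 and 26339.9 in the MDA-MB-436-labelled pair, and 410.1 and 425 in MCF10A. No line overlapped another. It was 5.42-fold higher in the HT-29-labelled libraries than in MCF10A (5.08 to 5.79; log2 fold change 2.46, SE 0.0368, adjusted p = 1.17e-09). In the MDA-MB-436-labelled libraries it was 63.3-fold higher than in MCF10A (59.6 to 67.3; log2 fold change 6.02, SE 0.0368, adjusted p = 1.77e-11).

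APOL2, a member without a signal peptide, had a log2 fold change smaller in size than APOL1, APOL3 and APOL6 in each of the 3 comparisons. It had 1124 and 1028 normalised counts in the HT-29-labelled libraries, 7839 and 8241 in the MDA-MB-436-labelled pair, and 399 and 468 in MCF10A. The lines were in the same order as for APOL6 and did not overlap. It was 2.32-fold higher in the HT-29-labelled libraries than in MCF10A (2.17 to 2.49), at log2 fold change 1.31 (SE 0.0789, adjusted p = 1.39e-06). In the MDA-MB-436-labelled libraries it was 18.0-fold higher than in MCF10A (16.9 to 19.1), at log2 fold change 4.21 (SE 0.0789, adjusted p = 1.78e-09).

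APOL4 was found at a level above a few reads in the MDA-MB-436-labelled libraries only. These had 732.9 and 729.8 normalised counts, from 356 and 1185 reads. The libraries labelled HT-29 had 1 and 3 reads, and MCF10A had 0 and 0. APOL4 was at least 626.0-fold higher in the MDA-MB-436-labelled libraries than in MCF10A, with 3 reads over the group as the floor (log2 fold change 9.52, SE 0.279, adjusted p = 1.77e-08). Its difference between the HT-29-labelled libraries and MCF10A was called (log2 fold change 1.36, SE 0.279, adjusted p = 0.00217), but it rested on 4 reads against 0. The call ended with DESeq2 (adjusted p = 0.0592), limma-voom (adjusted p = 0.0554), a pseudocount of 10 (adjusted p = 0.142) and the authors' RPKM (adjusted p = 0.598), over a range of adjusted p from 3.05e-05 to 0.598 in the alternatives. Small counts of genes abundant in another line also occurred. KRT20 gave 1 read in the HT-29-labelled libraries, 64661 in the MDA-MB-436-labelled pair and 3 in MCF10A. KRT5, a basal keratin, gave 157 and 141 reads in the HT-29-labelled libraries, 60 and 6 in the MDA-MB-436-labelled pair, and 226481 and 847702 in MCF10A. Their part in the few APOL4, APOL3 and APOL1 reads of the low lines was not tested.

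APOL5, a little-studied member, had 1 read in all, in the 25M library labelled HT-29, and 0 in the other 5 libraries. It did not reach the minimum of 10 normalised counts in 2 libraries and was not tested. At this depth nothing can be said of it beyond that limit.

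With the HT-29 label, 5 of 5 tested members were called higher than in MCF10A. In this comparison 28.4% of all tested genes were called higher, 18.1% lower and 46.5% in either direction. In the MDA-MB-436-labelled pair, 5 of 5 were called higher than in MCF10A, and over all tested genes 25.6% were called higher, 23.7% lower and 49.2% in either direction. APOL2 and APOL6 reached the minimum in every library. APOL1 and APOL3 reached it only outside MCF10A, and APOL4 only in the MDA-MB-436-labelled libraries, so their part of these counts was partly fixed by the minimum. The median log2 fold changes of the 5 genes were 2.46 and 8.94, beside 0.13 and 0.00 over all tested genes, and they were the same with APOL4 set at its bound. These comparisons share the MCF10A libraries.

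**Figure D2:**
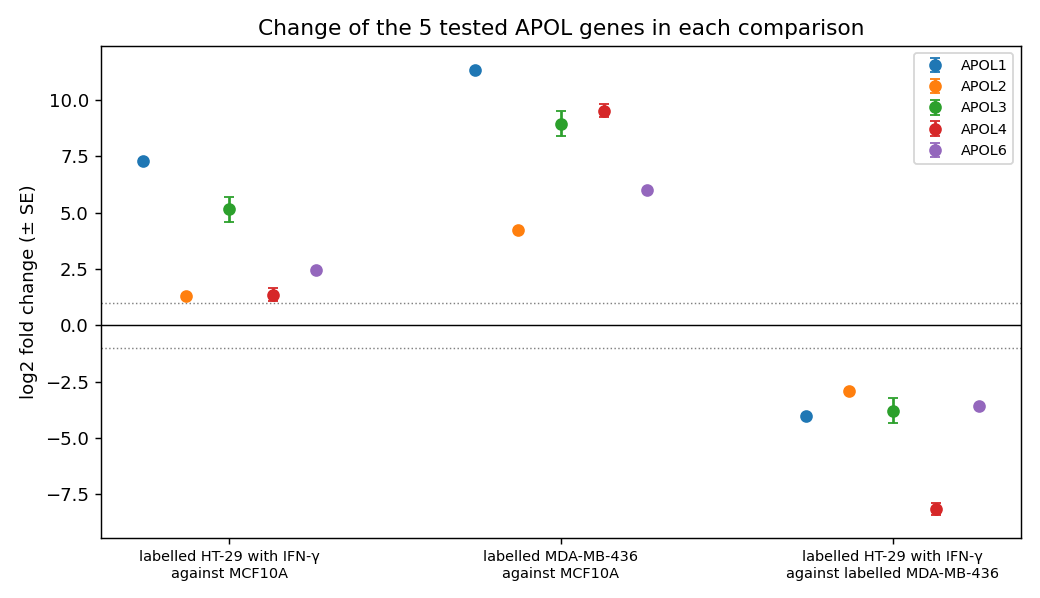
Log2 fold change of the 5 tested APOL genes in the 3 comparisons, with the limma SE as bars. The solid line is 0 and the dotted lines mark the threshold of 1 in either direction. Against MCF10A the genes spread from 1.31 to 7.31 and from 4.21 to 11.33, while between the other lines APOL1, APOL2, APOL3 and APOL6 lie from -4.02 to -2.90 and APOL4 at -8.15.

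Setting the HT-29-labelled libraries directly against the MDA-MB-436-labelled pair leaves out MCF10A, where several members were near 0. Here 5 of 5 tested members were called lower in the HT-29-labelled libraries. Over all tested genes 23.5% were called lower, 29.9% higher and 53.4% in either direction. APOL4 reached the minimum of 10 normalised counts only through the MDA-MB-436-labelled libraries, so its call here was fixed in part by that minimum. The median log2 fold change was -3.80 over the 5 genes and 0.0926 over all tested genes. APOL1 was 16.5-fold lower over pooled reads (95% counting interval 15.8 to 17.3; log2 fold change -4.02, SE 0.0712, adjusted p = 1.34e-09). APOL3 was 13.7-fold lower (12.5 to 15.02; log2 fold change -3.80, SE 0.553, adjusted p = 7.51e-04). APOL6 was 11.7-fold lower (11.4 to 11.99; log2 fold change -3.56, SE 0.0368, adjusted p = 1.38e-10). APOL2 was 7.74-fold lower (7.42 to 8.06; log2 fold change -2.90, SE 0.0789, adjusted p = 1.16e-08). The factors of these 4 genes ran from 7.74 to 16.5, while their MCF10A levels ran from 3.84 ± 0.129 for APOL1 to 433 ± 48.8 normalised counts for APOL2 (SD, n = 2 each). APOL4 stood apart, at 4 reads in the HT-29-labelled libraries and 1541 in the MDA-MB-436-labelled pair, or 455.5-fold lower (177.6 to 1674; log2 fold change -8.15, SE 0.279, adjusted p = 4.05e-08). IFN-γ is recorded for the label under which the family was lower, but the marker genes went against these labels. Which pair received IFN-γ thus cannot be told from them.

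The make-up of the family differed between the lines when set per length. RPKM was used for this, since the RPKM values imply a length of 10136 bases for APOL6 and 2610 for APOL2. In the HT-29-labelled libraries the order of RPKM was APOL2 at 14.9 ± 0.865, APOL1 at 9.66 ± 0.303, APOL6 at 8.21 ± 0.0371, APOL3 at 2.91 ± 0.235 and APOL4 at 0.0172 ± 0.00119 (SD, n = 2 each). In the MDA-MB-436-labelled pair it was APOL1 at 125.0 ± 1.23, APOL2 at 89.1 ± 2.57, APOL6 at 77.2 ± 3.47, APOL3 at 32.4 ± 0.210 and APOL4 at 6.38 ± 0.0601. In MCF10A it was APOL2 at 4.86 ± 0.558 and APOL6 at 1.20 ± 0.0325, then APOL3 at 0.0687 ± 0.0647 and APOL1 at 0.0390 ± 0.00140. APOL5, with its 1 read, had RPKM values of 0.0379 and 0 in the HT-29-labelled libraries, which enclose those of APOL4 there, so these genes cannot be ordered. APOL3 and APOL1 in MCF10A overlapped too and cannot be ordered, while the other neighbours named did not overlap between libraries. APOL1 was thus the leading transcript in the MDA-MB-436-labelled libraries and APOL2 in the other lines.

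APOL2 made up 42.7% and 40.9% of the family's RPKM in the HT-29-labelled libraries, 26.5% and 27.5% in the MDA-MB-436-labelled pair, and 78.2% and 79.2% in MCF10A. The share of APOL1 was 27.1% and 26.9% in the HT-29-labelled libraries, 37.6% and 38.1% in the MDA-MB-436-labelled pair, and 0.666% and 0.603% in MCF10A. APOL6 held a similar share everywhere, at 22.6% and 23.3% in the HT-29-labelled libraries, 24.2% and 22.6% in the MDA-MB-436-labelled pair, and 20.7% and 18.5% in MCF10A. The ratio of APOL1 to APOL3 was 3.59 and 3.07 in the HT-29-labelled libraries and 3.85 and 3.87 in the MDA-MB-436-labelled pair. Shares of a whole depend on each other, so a larger share of APOL1 goes with a smaller share of APOL2.

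**Figure D3:**
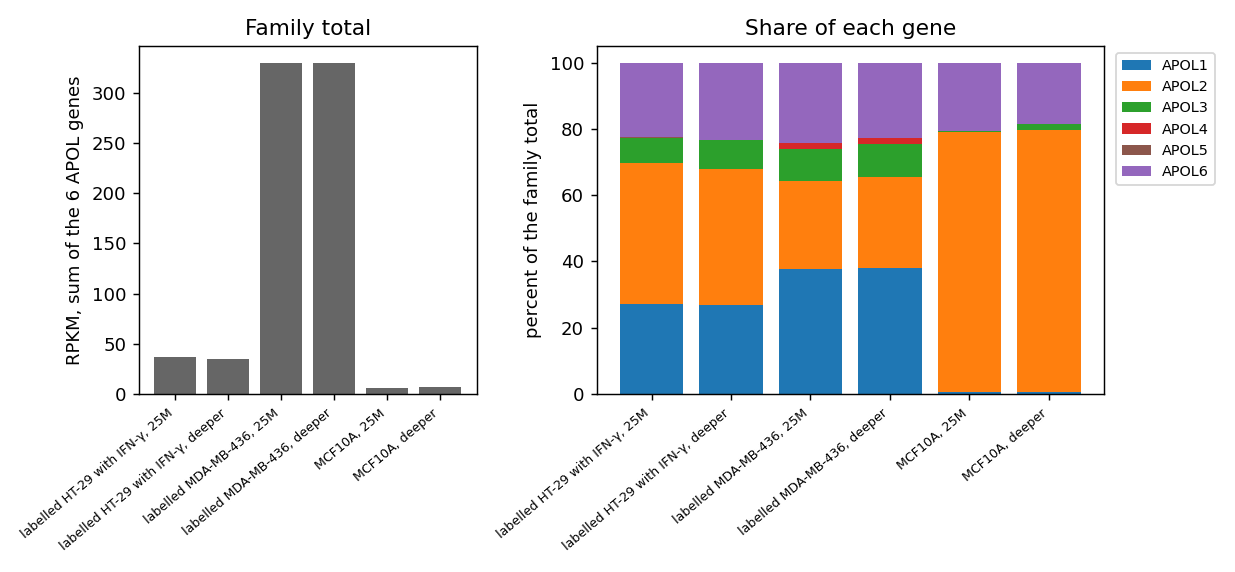
Left, summed RPKM of the 6 APOL genes in each library; right, the percent of that sum held by each gene. The total is near 330 in both libraries labelled MDA-MB-436 and under 7 in both MCF10A libraries, and APOL2 holds over 78% of the MCF10A total.

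Reads that fit several genes could blur these levels. Of all 50-base stretches in the GENCODE transcripts of APOL1, 0.370% also occurred in APOL2 and 0.238% in APOL3, and no other pair of members shared a stretch. With transcripts of every other gene included, 3.94% of the stretches of APOL1, 1.91% of APOL2, 0.140% of APOL3, 2.07% of APOL4, 0% of APOL5 and 0.417% of APOL6 were shared. No member overlapped another RefSeq gene.

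The genes around the family were then set beside it. In RefSeq order the stretch reads HMGXB4, TOM1, HMOX1, MCM5, RASD2, MB, APOL6, APOL5, RBFOX2, APOL3, APOL4, APOL2, APOL1, MYH9, TXN2, FOXRED2 and EIF3D. RBFOX2, a splicing regulator between APOL5 and APOL3, averaged 3312 ± 51.5 normalised counts in the HT-29-labelled libraries, 2706 ± 4.94 in the MDA-MB-436-labelled pair and 4361 ± 33.8 in MCF10A (SD, n = 2 each). Its log2 fold changes against MCF10A were -0.40 and -0.69, under the threshold. MYH9, the non-muscle myosin heavy chain gene next to APOL1, averaged 22079 ± 516 in the HT-29-labelled libraries, 28975 ± 64.7 in the MDA-MB-436-labelled pair and 25921 ± 212 in MCF10A, with log2 fold changes of -0.23 and 0.16. RBFOX2 and MYH9 thus stayed under the threshold where APOL1 moved by 7.31 and 11.33. The next genes beyond APOL6 were MB (3.55 and 5.39) and RASD2 (6.60 and 3.02, with 0 reads in MCF10A). MCM5 (-0.80 and -1.44) and HMOX1 (4.44 and -0.29) followed.

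The neighbour list held 13 tested genes, of which CACNG2 and IFT27 lie outside the stretch above. Of the 13, 6 were higher and 2 lower in the HT-29-labelled libraries than in MCF10A (28.4% and 18.1% of all tested genes). In the MDA-MB-436-labelled pair, 2 were higher and 4 lower than in MCF10A (25.6% and 23.7%). In the HT-29-labelled libraries, 4 were higher and 1 lower than in the MDA-MB-436-labelled pair (29.9% and 23.5%). CACNG2 and IFT27 were among the 6 higher, and IFT27 among the 4 lower. RASD2, CACNG2 and MB had 0, 0 and 1 reads in MCF10A and reached the minimum only outside it, which partly fixed their calls. RASD2 and CACNG2 reached it only in the HT-29-labelled libraries, with 238 and 60 reads, beside 14 and 1 in the MDA-MB-436-labelled pair. Their calls between these pairs were thus partly fixed too. The higher call of RASD2 in the MDA-MB-436-labelled libraries rested on 14 reads against 0 in MCF10A. MB, the myoglobin gene next to APOL6, was higher in both lines than in MCF10A, at 13.4 ± 1.96 normalised counts in the HT-29-labelled libraries, 50.5 ± 4.41 in the MDA-MB-436-labelled pair and 0.245 ± 0.347 in MCF10A (SD, n = 2 each). EIF3D, a subunit of a translation initiation factor, was lower in both lines than in MCF10A (log2 fold changes -1.20 and -1.44), but its call in the HT-29-labelled libraries ended with scaling by library size alone (-0.89). TOM1 lost its call there with TMM scaling (log2 fold change 0.90). The median log2 fold changes of the list were -0.22, -0.35 and 0.29 in the 3 comparisons.

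**Figure D4:**
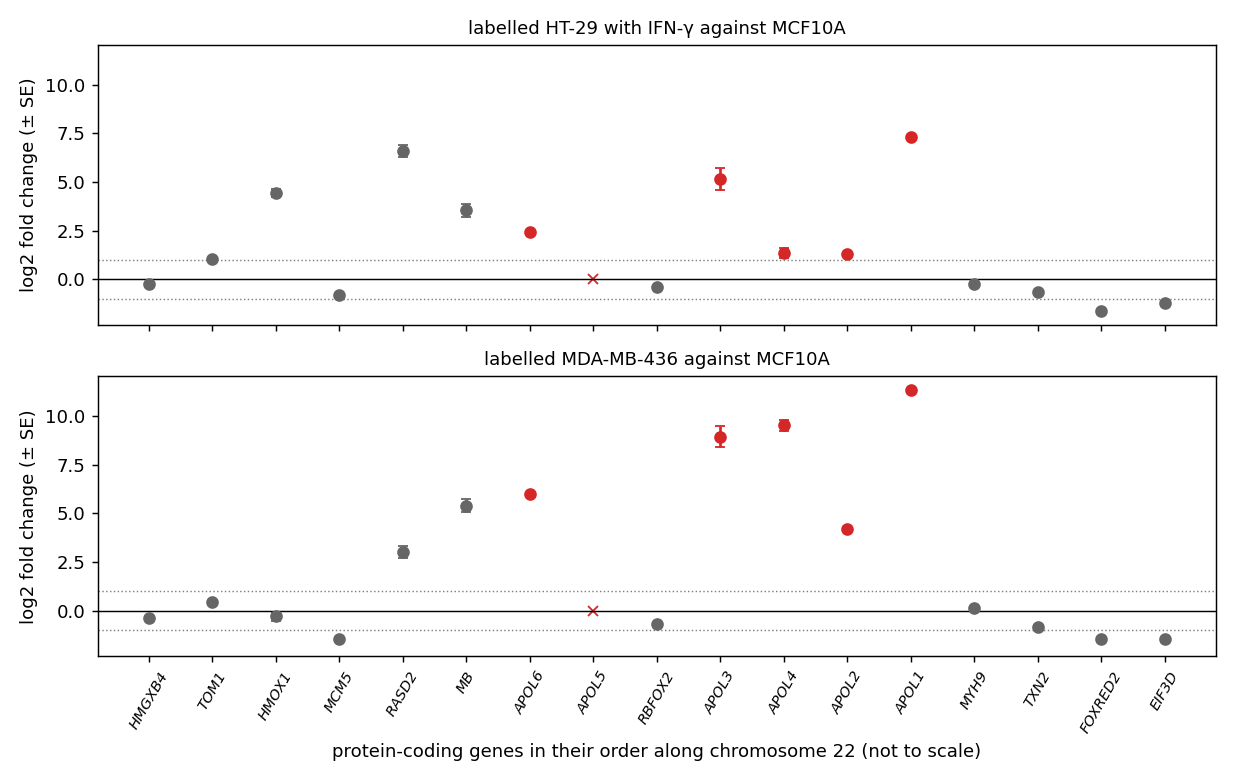
Log2 fold change against MCF10A of protein-coding genes in their order along chromosome 22, not to scale, with the limma SE as bars. APOL genes are red, other genes grey, a cross marks APOL5, which was not tested, and the dotted lines mark a change of 1. APOL1 lies at 7.31 and 11.33, MYH9 beside it at -0.23 and 0.16, and RASD2, beyond APOL6, at 6.60 and 3.02.

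IRF1, a transcription factor induced by IFN-γ, stood in the same order of lines as the family. It averaged 2214 ± 28.3 normalised counts in the HT-29-labelled libraries, 79539 ± 138 in the MDA-MB-436-labelled pair and 404 ± 14.6 in MCF10A (SD, n = 2 each). Of 14 tested genes of this pathway, 9 were higher and 0 lower in the HT-29-labelled libraries than in MCF10A. In the MDA-MB-436-labelled pair, 13 were higher and 0 lower than in MCF10A. Set directly, 1 was higher and 10 were lower in the HT-29-labelled libraries than in the MDA-MB-436-labelled pair. The median log2 fold changes were 1.88, 4.05 and -1.82 in these 3 comparisons. Over all tested genes 28.4% were higher and 18.1% lower in the first, 25.6% and 23.7% in the second, and 29.9% and 23.5% in the third. IRF8 had 0 reads in MCF10A and reached the minimum only outside it, so its calls against MCF10A were partly fixed.

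The receptor chains did not move together. IFNGR1, the ligand-binding chain, averaged 2733 ± 31.4 normalised counts in the HT-29-labelled libraries and 9304 ± 161 in the MDA-MB-436-labelled pair (log2 fold change -1.77, adjusted p = 1.47e-09). IFNGR2, the second chain, averaged 3764 ± 90.0 in the HT-29-labelled libraries and 1589 ± 34.3 in the MDA-MB-436-labelled pair (log2 fold change 1.24, adjusted p = 1.26e-08), and was the 1 gene of the pathway that was higher in the HT-29-labelled libraries. STAT3, a factor used more by other cytokines, was under the threshold between the HT-29-labelled libraries and MCF10A (log2 fold change 0.31), and its call between the HT-29-labelled libraries and the MDA-MB-436-labelled pair (-1.01) ended with scaling by library size alone (-0.68).

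Of the guanylate-binding proteins, the family of GBP1, 6 of 6 tested genes were called higher in each line than in MCF10A. Over all tested genes 28.4% were called higher in the HT-29-labelled libraries and 25.6% in the MDA-MB-436-labelled pair. GBP4, GBP5 and GBP7 had 3, 4 and 12 reads in MCF10A and reached the minimum only outside it. Their calls were thus partly fixed by that minimum. GBP6 was not tested and went the other way. It had 11 reads in the HT-29-labelled libraries, 4 in the MDA-MB-436-labelled pair and 30 in MCF10A. GBP1 averaged 1741 ± 10.4 normalised counts in the HT-29-labelled libraries, 63137 ± 648 in the MDA-MB-436-labelled pair and 90.4 ± 0.667 in MCF10A (SD, n = 2 each). GBP4 averaged 206 ± 10.2 in the HT-29-labelled libraries, 37983 ± 557 in the MDA-MB-436-labelled pair and 0.736 ± 1.04 in MCF10A. GBP2 averaged 610.1 ± 15.5 in the HT-29-labelled libraries, 21137 ± 153 in the MDA-MB-436-labelled pair and 66.4 ± 1.496 in MCF10A. These 3 genes and APOL3 had the same order of lines. Between the HT-29-labelled libraries and the MDA-MB-436-labelled pair, GBP1 changed by -5.18 and APOL3 by -3.80 on the log2 scale. In that comparison 5 guanylate-binding genes were lower, and GBP7, with 182 reads against 43, was higher, beside 23.5% and 29.9% of all tested genes. The median log2 fold changes of the 6 genes were 3.95 and 8.86 against MCF10A and -5.03 between the other lines.

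Other apolipoproteins, lipid carriers unrelated in sequence to the APOL genes, were mixed. Of 15 listed genes 6 were tested, of which 2 were higher and 0 lower in the HT-29-labelled libraries than in MCF10A, and 3 higher and 1 lower in the MDA-MB-436-labelled pair. CLU, which encodes the chaperone clusterin, averaged 5141 ± 176 normalised counts in the HT-29-labelled libraries, 106.8 ± 0.352 in the MDA-MB-436-labelled pair and 372 ± 22.7 in MCF10A (SD, n = 2 each). It was highest in the HT-29-labelled libraries, unlike any tested APOL gene. APOH, a plasma glycoprotein, averaged 0.274 ± 0.387 in the HT-29-labelled libraries, 625 ± 4.17 in the MDA-MB-436-labelled pair and 0 in MCF10A. Set directly, 2 of these genes were higher and 3 lower in the HT-29-labelled libraries than in the MDA-MB-436-labelled pair. APOH and APOD reached the minimum only in the MDA-MB-436-labelled libraries. APOE reached it in both libraries of a line only under the HT-29 label, with 82 reads there. It had 8 in the MDA-MB-436-labelled pair and 10 in MCF10A. The calls of APOH, APOD and APOE were thus partly fixed by that minimum. The 3 medians were 0.58, 0.94 and -0.43. Shares called higher and lower over all tested genes were 28.4% and 18.1%, 25.6% and 23.7%, and 29.9% and 23.5%. A difference of this list from those shares was not tested. APOM, a carrier on high-density lipoprotein, was higher in the MDA-MB-436-labelled libraries than in MCF10A (log2 fold change 1.62).

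APOL1 works in serum beside APOA1, the main protein of high-density lipoprotein, and haptoglobin-related protein, encoded by HPR. APOA1 had 2 reads in the HT-29-labelled libraries, 2 in the MDA-MB-436-labelled pair and 9 in MCF10A. HPR had 0 reads in the 3 lines, and HP, which encodes haptoglobin, had 0, 0 and 1. None of these genes was tested.

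Genes of the apoptotic pathway that APOL6 has been placed in were mixed. Of 8 tested BH3-only genes, which trigger mitochondrial apoptosis, 4 were higher and 0 lower in the HT-29-labelled libraries than in MCF10A, and 3 higher and 3 lower in the MDA-MB-436-labelled pair. PMAIP1 was higher in both (log2 fold changes 3.34 and 3.50), BBC3 passed in the MDA-MB-436-labelled libraries (3.83) and stood at 0.12 in the HT-29-labelled libraries, and BID passed in neither (0.23 in the HT-29-labelled libraries and 0.36 in the MDA-MB-436-labelled pair). In the HT-29-labelled libraries, 3 were higher and 1 lower than in the MDA-MB-436-labelled pair. The 3 medians were 0.998, 0.40 and 0.87. Shares called higher and lower over all tested genes were 28.4% and 18.1%, 25.6% and 23.7%, and 29.9% and 23.5%. A difference of the BH3-only genes from those shares was not tested.

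Of 8 survival and autophagy genes, 2 were higher in the HT-29-labelled libraries than in MCF10A and 3 higher and 1 lower in the MDA-MB-436-labelled pair. SQSTM1, an autophagy receptor, averaged 97319 ± 2537 normalised counts in the HT-29-labelled libraries, 18753 ± 487 in the MDA-MB-436-labelled pair and 7483 ± 40.1 in MCF10A (SD, n = 2 each), an order unlike that of APOL6. BCL2L1, an anti-apoptotic gene, had log2 fold changes of -0.32 and 1.52 against MCF10A, and MCL1 of -0.48 and 0.99. Set directly, 3 of these genes were higher and 3 lower in the HT-29-labelled libraries than in the MDA-MB-436-labelled pair. The 3 medians were 0.26, 0.73 and -0.15. With scaling by library size alone, 4 rather than 2 of them were higher in the HT-29-labelled libraries than in MCF10A. In the main result, shares called higher and lower over all tested genes were 28.4% and 18.1%, 25.6% and 23.7%, and 29.9% and 23.5%. A difference of these 8 genes from those shares was not tested.

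Markers of cells outside the labelled lines were checked because endothelium and leukocytes also express APOL genes. Of the leukocyte markers, PTPRC had 8 reads in the HT-29-labelled libraries, 7 in the MDA-MB-436-labelled pair and 12 in MCF10A. CD3E had 0 reads in the HT-29-labelled libraries, 0 in the MDA-MB-436-labelled pair and 3 in MCF10A. LYZ, which epithelial cells can also express, had 13 reads in the HT-29-labelled libraries, 80106 in the MDA-MB-436-labelled pair and 1 in MCF10A, and so moved with the family. The endothelial markers PECAM1 and CDH5 summed to 111 and 78.8 normalised counts in the HT-29-labelled libraries, 4.12 and 4.93 in the MDA-MB-436-labelled pair, and 16.9 and 19.6 in MCF10A, with CDH5 at 0 reads in the last 2 lines. They were thus lowest where the APOL genes were highest. ALB, a hepatocyte gene, had 5 reads in the HT-29-labelled libraries and 0 elsewhere. The part of these markers in the APOL results was not tested, and in bulk RNA fewer cells of a type and less RNA per cell cannot be told apart.

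The genes with the pattern most like each member were found by the distance between centred log2(normalised count + 1) profiles over the 6 libraries, which amount to 3 lines. For APOL1 they were SHH, SLC15A3 and MX1 (distances 0.325, 0.362 and 0.777 on the log2 scale). For APOL2 they were SESN2, PLEKHA4 and NMI (0.210, 0.215 and 0.263), and for APOL3 they were FCGRT, TSPAN15 and FAM149A (0.997, 1.02 and 1.08). For APOL4 they were KCNE3, HOXB-AS3 and PLA1A (0.0862, 0.372 and 0.485), and for APOL6 they were PARP14, HLA-H and ELF3 (0.166, 0.282 and 0.329). HLA-H shares reads with other HLA genes and is uncertain. SHH, SLC15A3, KCNE3, HOXB-AS3 and PLA1A had 0 normalised counts in MCF10A. KCNE3, HOXB-AS3 and PLA1A averaged only 1.57, 1.30 and 1.84 in the HT-29-labelled libraries. The closeness of these genes to APOL1 and APOL4 thus depended in part on the 1 added to each count. Another member was never among the 3 nearest: the closest pair, APOL2 and APOL6, were 1.83 apart, and APOL1 and APOL3 were 2.93 apart.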

How the data were processed

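The 6 libraries were 50-bp paired-end RNA-seq. Per the submitters' processing notes, FastQC, STAR 2.2.0, HTSeq and hg19 were used; which annotation and strand option HTSeq took is not given in the sources used here. Per the file headers, the deposited tables hold a normalised count and an RPKM value per gene symbol. The normalised counts deposited by the authors are a signal in which each library was divided by its own factor: 100% of values above 0 were whole multiples of 1 step (tolerance 0.001), so whole reads were recovered. The deposited RPKM column was out of register with the symbols in 3485 of 23368 rows; case-insensitive ordering moved 3552 rows, none of them an APOL row, and left 0 out of register. Rows with 28 date-like symbols were left out.

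limma 3.58.1 in R 4.3.3, with a trended and robust prior, was fitted to log2(normalised count + 1) for all 6 libraries (3 residual degrees of freedom) and 15638 genes with at least 10 normalised counts in 2 libraries. Calls needed a Benjamini-Hochberg adjusted p under 0.05 together with a log2 fold change of 1 or more in size. Fold changes on this scale understate low genes. Folds in words are ratios of pooled, scaled reads with exact 95% intervals, which cover counting error only, as does the floor of 3 reads over a group. An exact two-sided permutation test of 2 against 2 libraries cannot go below p = 0.333 and was not used. edgeR 4.0.16, DESeq2 1.42.0 and limma-voom on recovered reads were among 21 alternatives. The script was tested on simulated data. The median chi-square between the libraries of a line was 0.708 for the HT-29-labelled pair, 0.672 for the MDA-MB-436-labelled pair and 0.546 for MCF10A, where sampling alone gives 0.455, so no pair was merged in the main fit. The members and gene lists were chosen with earlier results of these data known. Named were the 6 members, fixed marker genes, IRF1, GBP1, MYH9 and RBFOX2. Up to 3 tested genes of highest mean per list and the 3 genes nearest each tested member were named too. Other genes were named in addition, after their values were seen. They were MB, RASD2, MCM5, HMOX1, TOM1, CACNG2, IFT27, IFNGR1, IFNGR2, IRF8, GBP5, GBP6, GBP7, APOD, APOE and the lytic factor partners. RefSeq (GRCh38.p14) gave gene order only, and its coordinates are not printed because the build differs. Transcript sequences were from GENCODE release 29. Promoter and protein sequences of the members were not analysed here. Some listed genes are not reported here by name.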

Additional observations from a re-analysis of the deposited data

How the results depend on the processing

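Of 315 values of single APOL genes under 21 alternatives, 311 kept their direction and their side of the threshold, 4 lost the call and 0 reversed. The 4 were APOL4 in the HT-29-labelled libraries against MCF10A, with log2 fold changes of 0.21 (pseudocount of 10), 3.19 (DESeq2), 1.995 (limma-voom) and 0.02 (authors' RPKM), against 1.36 in the main result; there were 4 reads against 0. The number of members called stayed at 5 in the other comparisons under every alternative, and was 4 or 5 in that one. Leaving out each library in turn gave 5 in all 3 comparisons; the lone library left in a line was taken to vary like the other lines. Fold sizes of low genes depended on the scale: in the MDA-MB-436-labelled libraries against MCF10A, APOL1 ran from 6.92 with the authors' RPKM to 11.65 with DESeq2, and APOL4 from 2.88 with RPKM to 12.84 with a pseudocount of 0.1. With scaling by library size alone, the median over all genes shifted on the log2 scale by 0.30 in the HT-29-labelled libraries against MCF10A and by 0.32 for them against the MDA-MB-436-labelled pair, and the APOL genes moved with it, APOL2 to 1.62 and -2.57. TMM scaling moved it by -0.13 in the first of these. The authors' RPKM moved it by 0.10 and 0.16 in these comparisons. That scaling by library size changed the split of calls over all genes to 5376 higher and 1994 lower (4442 and 2823 in the main result) in the first, and to 5617 and 2822 (4675 and 3675) in the second. With at least 10 CPM in 2 libraries 11138 genes were tested and 4390, 5079 and 5307 called, against 7265, 7701 and 8350, and with RPKM 4546, 4978 and 5879 were called. The labels give no replicate numbers, but they do give each line a 25M and a deeper library; with this read depth class as a term, 5 members were called in each of the 3 comparisons, and 7271, 7715 and 8360 of all genes. Depth limits APOL1, APOL3 and APOL4 in MCF10A, with 10, 20 and 0 reads, and APOL5 in every library.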
